A study of Mus musculus with 56 samples.

Results

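The Rab GTPases are the small GTPases that give each membrane compartment its traffic identity, and the 56 genes described here are those whose gene name in the peak lists was Rab followed by a digit and then digits or letters alone. They were taken from 20352 gene names with at least 1 peak. A further 9 names with the letters Rab, among them regulators such as Rab3gap1 and Rab11fip1, were left out. The 56 genes held 4824 of 1610519 peaks, or 0.3%. Rab25, Rab7b and Rab9b had no peak under those names. The files use the older symbols Rab1 for Rab1a and Rab7l1 for Rab29.

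The peak lists came from bone marrow-derived macrophages (BMDMs) of wild-type C57BL/6 mice, 8 to 12 weeks old, grown for 6 days with supernatant of L929 cells, a fibroblast line that secretes M-CSF. In the 1 hr experiment, untreated BMDMs were compared with BMDMs given IL-4 (20 ng/ml) for 1 hr, for 8 antibodies: RNAPII-pS5 (RNA polymerase II phosphorylated on serine 5 of its repeat tail, which marks initiating and pausing polymerase), RNAPII-pS2 (the elongating form), H3K27Ac (a mark of active promoters and enhancers), the acetyltransferase p300, the lineage factor PU.1 (PU1 in the labels), and the histone deacetylases HDAC1, HDAC2 and HDAC3. In the IL-4/LPS experiment, a 24 hr pretreatment with IL-4 (IL-4 PT) or none (ctrl) was followed by LPS (100 ng/ml) for 1 hr or no LPS, so that the unstimulated groups were ctrl/ctrl and IL-4 PT/ctrl and the stimulated ones ctrl/LPS and IL-4 PT/LPS, for RNAPII-pS5, RNAPII-pS2 and the NF-kB subunit p65. Each of the 56 lists is 1 sample, and each group holds 2 replicates. The study describes them as independent biological replicates, and the labels do not tie them to mice or cultures. All cells were cross-linked with DSG and then formaldehyde, and all carried the wild-type genotype. The labels give the antibody ab4729 for both H3K27Ac and HDAC3, whereas the study's reagent list gives ab7030 for HDAC3, and which was used for the HDAC3 samples cannot be told apart here.

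Every Rab protein cycles between a GTP-bound form, which sits on a membrane and recruits effectors (tethers, motors and kinases), and a GDP-bound form held in the cytosol by GDP dissociation inhibitors. Exchange factors switch a Rab on and GTPase-activating proteins, most of them of the TBC family, switch it off. In macrophages this machinery moves a phagosome from a Rab5-positive early stage to a Rab7-positive late stage that fuses with lysosomes, returns receptors to the surface through Rab4 and Rab11, carries TLR4 to the surface with Rab10, and delivers cargo to lysosome-related organelles with Rab32 and Rab38. By their best known site of action, the 56 genes fall into ER and Golgi transport (12), early endosome and phagosome (9), recycling and transport to the plasma membrane (10), late endosome, lysosome and autophagy (7), secretory granules and lysosome-related organelles (11), and other roles (7). Each gene counts in 1 group alone, though many act at several sites. Rab39, described below as a phagosome Rab, counts under other roles. Rab17, described below as recycling receptors, counts under early endosome and phagosome.

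The results below turn on a handful of regions, and 5 of them are printed as 300-bp windows around the peak centre, from the RefSeq GRCm38.p6 genome, plus strand, 5′ to 3′. Capitals mark a STAT6-type element (TTC and GAA on either side of 4 bases) or a match to the NF-kB consensus, searched on both strands. The pair of p300 windows below gained p300 after 1 hr of IL-4, and each holds 2 STAT6-type elements. They do not stand for all the p300 regions named further below. The windows of those at Rab14, Rab31 and Rab11a held no STAT6-type element. Of the 3 p65 windows, bound after LPS, the Rab31 window held neither motif, the Rab32 window 11.4 kb inside the gene held 1 of each, the elements not overlapping, and the Rab32 window 1.0 kb inside the gene held 1 NF-kB match. A match is a run of letters and was not tested as a binding site.
Rab8b, intron 1, p300, chr9:66917394-66917693: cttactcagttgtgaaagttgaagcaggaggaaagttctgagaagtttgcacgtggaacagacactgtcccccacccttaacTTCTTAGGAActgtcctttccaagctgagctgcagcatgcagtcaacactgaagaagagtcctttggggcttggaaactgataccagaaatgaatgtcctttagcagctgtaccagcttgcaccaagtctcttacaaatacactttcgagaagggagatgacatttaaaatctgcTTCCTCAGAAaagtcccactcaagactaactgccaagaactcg
Rab21, intergenic, p300, chr10:115328674-115328973: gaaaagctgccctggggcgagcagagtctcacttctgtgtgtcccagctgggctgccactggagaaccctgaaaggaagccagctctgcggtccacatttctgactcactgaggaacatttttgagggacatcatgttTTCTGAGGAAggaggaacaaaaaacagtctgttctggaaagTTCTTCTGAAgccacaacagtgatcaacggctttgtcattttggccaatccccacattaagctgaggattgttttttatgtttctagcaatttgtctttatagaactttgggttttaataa
Rab31, intron, p65, chr17:65740324-65740623: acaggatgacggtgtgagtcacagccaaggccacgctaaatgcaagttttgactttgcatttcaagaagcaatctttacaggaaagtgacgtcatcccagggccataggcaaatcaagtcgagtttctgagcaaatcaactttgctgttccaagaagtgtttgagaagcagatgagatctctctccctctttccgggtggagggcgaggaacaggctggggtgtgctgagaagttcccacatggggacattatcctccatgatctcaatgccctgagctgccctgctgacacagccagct
Rab32, intron, p65, chr10:10546684-10546983: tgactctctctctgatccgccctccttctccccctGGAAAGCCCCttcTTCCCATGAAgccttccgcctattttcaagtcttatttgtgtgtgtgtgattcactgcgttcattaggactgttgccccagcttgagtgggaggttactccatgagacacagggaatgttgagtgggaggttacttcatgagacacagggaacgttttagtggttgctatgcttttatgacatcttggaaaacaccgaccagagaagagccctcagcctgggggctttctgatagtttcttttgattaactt
Rab32, intron, p65, chr10:10557073-10557372: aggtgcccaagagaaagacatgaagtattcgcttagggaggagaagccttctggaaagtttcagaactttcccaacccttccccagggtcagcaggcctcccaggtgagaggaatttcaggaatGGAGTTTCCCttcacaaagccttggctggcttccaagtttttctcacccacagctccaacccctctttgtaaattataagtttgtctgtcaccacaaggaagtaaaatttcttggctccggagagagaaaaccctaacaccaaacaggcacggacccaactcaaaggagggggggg

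Across windows of this length, the STAT6-type element was found in 10 of the 28 Rab p300 regions that rose after IL-4 (35.7%) and in 24 of all 204 Rab p300 regions tested (11.8%). Its share was 51.0% of the 7475 p300 regions that rose genome-wide and 13.3% of all p300 regions. The NF-kB consensus was found in 4 of the 42 Rab p65 regions that rose after LPS (9.52%) and in 15 of the 101 tested (14.9%), beside 12.2% and 13.6% of all p65 regions.

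The depth of sequencing is unknown, because the lists hold no read counts. As a substitute, the peaks listed per sample numbered 30420 to 35424 for RNAPII-pS5 and 16479 to 20677 for RNAPII-pS2 in the 1 hr experiment, 14476 to 22149 and 25838 to 29235 in the IL-4/LPS experiment, and 9556 to 38955 for p65. Untreated replicate 1 of p300 stood apart, with 44787 peaks against 66710 to 69360 in the other 3 samples. In the 1 hr RNAPII-pS2 lists, every peak name of the samples labelled untreated carried IL4 and none of those labelled IL-4 did, so these are called by their labels and no direction is read from them as an IL-4 effect. As a check of cell type, Csf1r, Cd68, Emr1 (F4/80), Itgam and Mertk had an RNAPII-pS5 peak in all 12 RNAPII-pS5 samples and Lyz2 in 10, while Adgre1 and Spi1 had none under those names. Of 18 markers of other blood cells and fibroblasts, 12 had no RNAPII-pS5 peak, Cd3d, Ms4a1 and Flt3 had one in all 12 samples, and S100a9, S100a8 and Elane in 7, 5 and 4. The summed RNAPII-pS5 score of the macrophage markers was 294 and 295 in ctrl/ctrl, 229 and 239 in IL-4 PT/ctrl, 94.0 and 153 in ctrl/LPS and 168 and 162 in IL-4 PT/LPS, and that of the other markers ranged from 55.9 to 119. Its part in the changes between these groups was not tested.

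The Rab genes differed widely in how much of the chromatin machinery was found at them. Rab8b (345 peaks), Rab11a (278), Rab20 (262) and Rab31 (259) had peaks in all 56 lists, whereas Rab40b had 1 peak in all, Rab26 2 and Rab36 4. In the 1 hr experiment 45 of the 56 genes had an RNAPII-pS5 peak in some sample and 41 in all 4, 48 had an H3K27Ac region (40 in all 4), 54 a p300 peak (48), 49 a PU.1 peak (43), 43 an HDAC1 peak (29), 42 an HDAC2 peak (22) and 21 an HDAC3 peak (10). In the IL-4/LPS experiment 46 had a p65 peak in some sample and 11 in all 8. The p300 peaks of Rab genes lay in introns in 55.9% of cases, against 44.5% of all p300 peaks, and the PU.1 peaks in 56.1% against 42.1%. Peaks are named for the nearest gene start, so that 66 of the 101 Rab p65 regions tested lay in the Rab gene itself, 12 in another gene and 23 between genes.

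A promoter peak of RNAPII-pS5, that is a peak centred within the promoter as the lists annotate it, was present in all 12 RNAPII-pS5 samples at 1 gene, Rab5a, in some samples at 30, and in none at 25. The peak score was read as the caller's −log10 p or q, and the sources do not say which. Its lowest value (1.3, for PU.1) lies below what the study's q-value cut-off would allow on that scale. What the score measures is thus not settled. Rab5a, the early endosome Rab, had promoter scores from 9.58 to 109, with a median of 31.7. The median was 16.2 (6.36 to 143, 11 samples) at Rab11b and 69.4 (5.04 to 97.9, 7 samples) at Rab11a, both of recycling endosomes. Rab40c, a substrate receptor of a cullin ubiquitin ligase, had a median of 21.4 (4.57 to 119, 10 samples), and Rab18, of lipid droplets and ER, 83.7 (7.01 to 112, 7 samples). These ranges overlapped, so the 5 genes are not ordered by level. The medians do not order them either, since they pool the samples with a peak from experiments whose scores differed in scale. Rab5a had 79.8 to 109 in the 1 hr experiment and 9.58 to 36.3 in the IL-4/LPS experiment. In the 1 hr samples Rab11b (143, 104, 117 and 127) lay above Rab11a (97.9, 69.4, 76.9 and 87.85). No RNAPII-pS5 peak of any kind was listed at Rab3b, Rab15, Rab3c, Rab4a, Rab2b, Rab30, Rab27b, Rab26, Rab36, Rab40b and Rab39b. The other genes without a promoter peak had RNAPII-pS5 peaks annotated elsewhere, so that lack is no lack of polymerase. In the 1 hr samples the summed genic scores were 150, 82.5, 119 and 113 at Rab35 and 120, 66.8, 85.8 and 79.3 at Rab8b. The plot of summed RNAPII-pS5 scores shows the genes with a genic peak in the 1 hr experiment.

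**Figure D1:**
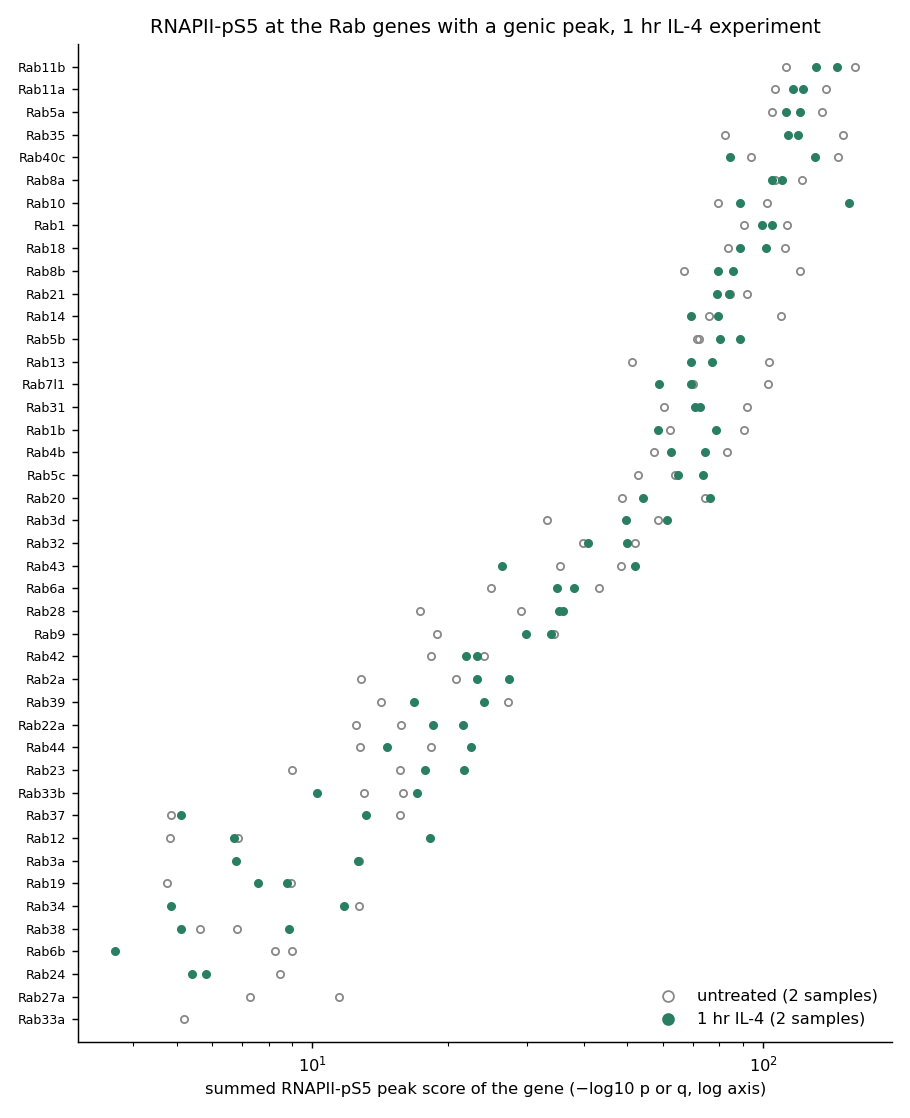
Summed RNAPII-pS5 peak score of each Rab gene with a genic peak (43 genes, log axis; not divided by gene length) in the 1 hr experiment, with open grey points for the 2 untreated samples and filled green points for the 2 samples given IL-4 for 1 hr. The untreated and IL-4 points of most genes lie close together, and no gene passed the test.

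In each comparison, the scores of a gene's peaks outside intergenic sequence were summed (RNAPII-pS5, RNAPII-pS2, H3K27Ac), or the highest score was taken per merged region (the other antibodies), and log2 values were tested with limma's moderated test over all genes or regions with a peak in at least 2 samples, with Benjamini-Hochberg adjustment. A change was called at an adjusted p of at most 0.05. Values were centred within each sample on the features present in every sample, so a change is relative to that median. Where a group had no peak, both replicates were set to the lowest score, which has no spread, so the adjusted p of such a feature is too small. The comparisons below give its scores and no fold.

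After 1 hr of IL-4, no change of RNAPII-pS5 was called at the Rab genes. Of 42 genes tested 0 were called, beside 0.201% of all genes called higher and 0.192% called lower, and limma's unadjusted p was at most 0.05 for 1 gene higher and 3 lower. The median log2 change was 0.06 over the Rab genes and 0.00 over all genes. Among genes with a peak in every sample the values moved most at Rab12, which sends receptors from recycling endosomes to lysosomes. Its summed score was 4.83 and 6.86 in untreated BMDMs and 18.2 and 6.71 after IL-4, so that the groups overlapped (log2 change 0.97 ± 0.69 SE, adjusted p = 0.59). Rab23, a ciliary Rab, had 15.7 and 9.02 against 21.7 and 17.8 (0.75 ± 0.38, adjusted p = 0.46), and Rab28, also ciliary, 29.0 and 17.3 against 36.0 and 35.3 (0.70 ± 0.26, adjusted p = 0.36). At these 2 genes both IL-4 values lay above both untreated values. Without IL-4 replicate 1, 1 Rab gene was called.

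For RNAPII-pS2, 0 of 28 Rab genes were called between the samples labelled IL-4 and those labelled untreated, beside 0% of all genes called higher and 0.046% called lower. Unadjusted p was at most 0.05 for 0 higher and 3 lower. Rab8b, which carries secretory vesicles and receptors to the plasma membrane, had 26.3 and 44.0 in the samples labelled untreated and 10.8 and 8.95 in those labelled IL-4 (log2 change -1.71 ± 0.32, adjusted p = 0.17). The early endosome gene Rab5c had 11.6 and 16.8 against 4.40 and 4.99 (-1.49 ± 0.48, adjusted p = 0.26), and Rab31, of trans-Golgi and endosomes, 17.8 and 15.7 against 5.58 and 10.7 (-1.03 ± 0.47, adjusted p = 0.37). The groups did not overlap at any of these 3 genes. Their peak names carry the opposite treatment, so which group was the treated one cannot be told apart here. Rab8b was called without the sample labelled untreated replicate 1 and without either sample labelled IL-4.

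H3K27Ac moved in both directions after 1 hr of IL-4. Of 42 Rab genes tested, 4 rose (Rab43, Rab24, Rab5c and Rab11a) and 8 fell (Rab7l1, Rab40c, Rab32, Rab1, Rab9, Rab10, Rab20 and Rab3b), beside 13.9% of all genes called higher and 16% called lower, so the share of Rab genes that rose lay below that of all genes and the share that fell near it. The median log2 change was 0.00 over the Rab genes and over all genes. Each role held at most 1 riser, and the secretory and the late endosomal groups held 2 genes each that fell.

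Among the genes whose H3K27Ac rose, Rab5c had a summed signal (normalized tags) of 354 and 331 in untreated BMDMs and 511 and 482 after IL-4, a log2 change of 0.52 ± 0.06 (adjusted p = 0.0079). The increase came with a further region at chr11:100730216-100731216, in an intron 7.4 kb from the gene start, listed in the IL-4 samples alone with 113 and 108. Rab11a, the recycling endosome Rab, had 400.2 and 405 against 460.2 and 459 (0.18 ± 0.03, adjusted p = 0.031). This sum rose through a region 173 kb away inside Megf11 (27.9 and 27.2 against 113 and 111), while the region at the Rab11a start had 255 and 251 against 242 and 234. Rab43, an ER to Golgi Rab, had no region listed in untreated BMDMs and one of 276 and 265 after IL-4 (chr6:87810641-87811641, intron, 0.6 kb from the start). Rab24, an autophagy Rab, likewise had none listed and then 249 and 245 at chr13:55318329-55319329, which the lists place at a transcription end 3.2 kb from the Rab24 start. An unlisted region need not lack signal, since a Rab7 region of 103 was listed in IL-4 replicate 1 and not in replicate 2. RNAPII-pS5 at Rab43 was 35.4 and 48.4 in untreated BMDMs and 26.3 and 52.1 after IL-4.

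Among the called genes with a region in all 4 samples, the steepest falls were at Rab7l1 (Rab29, a Golgi and lysosome Rab that binds LRRK2), with 341 and 332 before and 225 and 230.2 after IL-4 (log2 change -0.57 ± 0.04, adjusted p = 0.0034), and at Rab40c, with 731 and 735 against 484 and 521 (-0.56 ± 0.05, adjusted p = 0.0056). Rab32, which brings antimicrobial cargo to vacuoles and lysosome-related organelles, had 283 and 274 against 185 and 209 (-0.51 ± 0.07, adjusted p = 0.016). Rab1, the ER to Golgi Rab, fell by 0.43 on the log2 scale (328 and 318 against 251 and 231, adjusted p = 0.014). Every untreated value of these genes lay above every IL-4 value. Rab6b, a Golgi Rab that was not called, had 43.0 and 61.2 against 31.1 and 29.9 (-0.76 ± 0.21, adjusted p = 0.069). Smaller falls were called at Rab9 (-0.32 ± 0.06; 124 and 119 against 99.7 and 96.5), Rab10 (-0.22 ± 0.04; 266 and 263 against 227 and 231) and Rab20 (-0.22 ± 0.04; 362 and 352 against 311 and 308). The sum for Rab10 fell through weak intronic regions, such as that of 35.6 and 36.9 at about 27 kb, listed in untreated BMDMs alone, while the region at its start had 197 and 206 against 213 and 230.5. Of the fall at Rab20, part lay in a region 66.7 kb from the start (43.9 and 52.8 against 20.5 and 18.4). Rab3b, a neuronal secretory Rab, had a weak region of 14.1 and 18.7 in untreated BMDMs and none after IL-4. The plot of H3K27Ac changes shows the 35 genes with a region in all 4 samples. Without IL-4 replicate 1 or 2, 5 and 6 genes were called in place of 12.

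**Figure D2:**
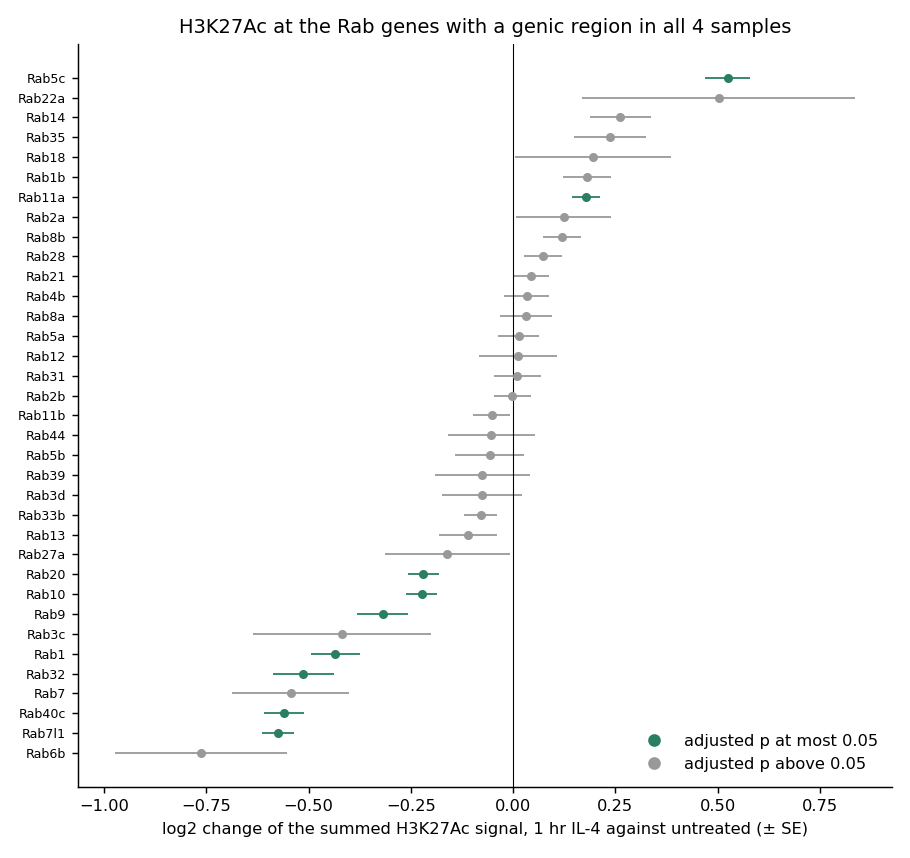
Log2 change of summed H3K27Ac signal after 1 hr of IL-4 (bars ± SE, n = 2 per group) for the 35 Rab genes with a region in all 4 samples, with the 9 genes at an adjusted p of at most 0.05 in green. Rab5c and Rab11a are the 2 called genes above 0, and the other 7 lie between -0.57 and -0.22.

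Binding of p300 rose at more Rab regions than it fell. Of 204 regions tested at 51 Rab genes, 28 rose and 6 fell, at 21 genes, beside 11.1% of all regions called higher and 2.81% called lower. The Rab share was 28 of 204 higher and 6 of 204 lower, close to the background, with a median log2 change of 0.30 for Rab regions and 0.22 for all regions. Of the 34 called regions, 18 had a peak in every sample and 14 in only 2 samples. All 34 calls are relative to the centring, which took out a difference of 0.67 on the log2 scale between the groups, and without centring 0 were called. Without untreated replicate 1, 50 regions were called, 38 higher and 12 lower. Without untreated replicate 2 the calls were 94, and without IL-4 replicate 1 or 2 they were 16 and 18.

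Rab8b carried 5 of the called p300 regions, the most of any Rab gene. At chr9:66917259-66917895, the window printed above with 2 STAT6-type elements, 2.2 kb from the gene start in intron 1, no peak was listed in untreated BMDMs and the scores after IL-4 were 56.1 and 62.8 (adjusted p below the threshold also without untreated replicate 1). At 0.9 kb (chr9:66918517-66919183) the scores were 8.79 and 33.4 against 71.0 and 70.4 (log2 change 1.38 ± 0.17, adjusted p = 0.026), and at 42.1 kb (chr9:66877182-66878018) 24.3 and 66.1 against 143 and 160.2 (1.25 ± 0.14, adjusted p = 0.025). All IL-4 scores lay above the untreated scores at these regions. In the same intron, the region at 37.4 kb (chr9:66881858-66882879) went the other way, with 23.5 and 75.8 against 13.9 and 8.72 (-2.61 ± 0.31, adjusted p = 0.025). The plot of p300 at Rab8b shows 12 regions by distance from the gene start.

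**Figure D3:**
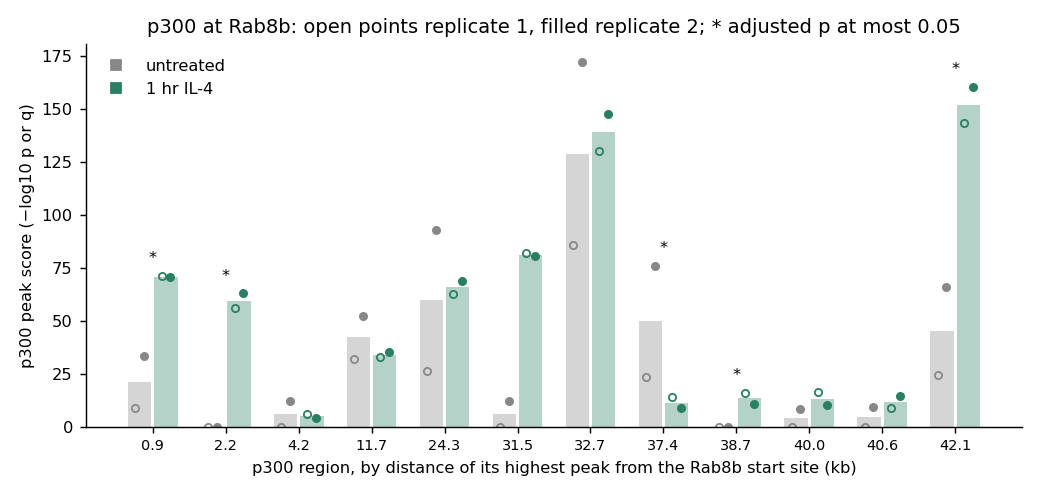
p300 peak score at 12 regions of Rab8b, by distance of the region from the gene start (kb), in untreated BMDMs and after 1 hr of IL-4; bars are means, open points replicate 1, filled points replicate 2, and asterisks mark regions called by limma. The regions at 42.1, 2.2 and 0.9 kb were higher after IL-4 and the one at 37.4 kb lower.

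Regions named for Rab21, Rab31, Rab14, Rab18 and Rab11a also gained p300. The region 13.2 kb before Rab21, an integrin-trafficking Rab (chr10:115328461-115329188, printed above), had 18.7 and 52.6 in untreated BMDMs and 156 and 154 after IL-4 (1.64 ± 0.13, adjusted p = 0.015). In Rab31 (chr17:65734995-65735565, intron, 37.5 kb) the scores were 11.4 and 34.2 against 101 and 86.8 (1.57 ± 0.15, adjusted p = 0.02). Rab14, of phagosomes and Golgi, had none against 46.7 and 39.5 at chr2:35188819-35189380, 12.0 kb from its start. Rab18 had none against 56.5 and 67.2 at chr18:6715682-6716228, 49.2 kb before its start. A region named for Rab11a, at chr9:64563951-64564910, lies 173 kb away inside Megf11 and had 37.0 and 114 against 235 and 241 (1.21 ± 0.12, adjusted p = 0.021). These 5 regions were called with and without untreated replicate 1.

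Further p300 increases were called at Rab20 1.6 kb from its start (18.6 and 54.4 against 91.4 and 92.9, log2 change 0.86 ± 0.12), at Rab24 3.3 kb from its start, at the place of the H3K27Ac region named above (30.1 and 94.2 against 152 and 165, 0.90 ± 0.12), and 13.9 kb before the start the lists give for Rab7, the late endosome Rab (6.57 and 18.4 against 56.8 and 52.0, 1.63 ± 0.18). The RefSeq span of Rab7, chr6:87999106-88045270, holds the H3K27Ac region listed at that distance (chr6:88027134-88028134). H3K27Ac near the Rab20 start overlapped between the groups (77.4 and 80.3 against 72.5 and 81.2). Rab15, a recycling Rab with no RNAPII-pS5 peak, gained p300 at 8.8 kb (5.33 and 11.5 against 61.6 and 50.6, 2.16 ± 0.29). The other genes with a called increase were Rab2a, Rab3a, Rab5c, Rab10, Rab30, Rab35, Rab38 and Rab39, and those with a called decrease, besides Rab8b, were Rab6b, Rab11a, Rab28, Rab31 and Rab39b. By role, 6 of 47 ER and Golgi regions rose, 7 of 49 early endosomal, 9 of 47 recycling, 2 of 16 late endosomal, 2 of 32 secretory and 2 of 13 others.

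No Rab region was called for PU.1 or for the deacetylases, beside 0% of all regions in either direction for each of the 4 factors. For PU.1, limma's unadjusted p was at most 0.05 for 11 of 188 Rab regions higher and 9 lower (5442 and 3150 of 67996 over all regions), for HDAC1 for 2 and 16 of 82 (1252 and 3096 of 27384), for HDAC2 for 4 and 1 of 61 (2150 and 1428 of 24751), and for HDAC3 for 6 and 3 of 27 (2055 and 645 of 12567). The median log2 change over Rab regions was -0.01 for PU.1, -0.36 for HDAC1, 0.05 for HDAC2 and 0.45 for HDAC3, beside 0.00, -0.13, -0.02 and 0.15 over all regions. Without either untreated replicate, 1 region was called for PU.1 and for HDAC2, and for HDAC3 2 without untreated replicate 1 and 1 without untreated replicate 2.

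Among regions with a peak in every sample, PU.1 changed most in value at a region named for Rab11a that lies 41.3 kb from its start inside Megf11 (chr9:64696353-64696669), with 25.8 and 14.1 against 10.3 and 3.57 (log2 change -1.99 ± 0.63, adjusted p = 0.36). It was 3.90 and 2.32 against 11.4 and 10.4 at Rab19 (chr6:39381529-39381896, 1.52 ± 0.67, adjusted p = 0.45) and 20.8 and 16.0 against 7.14 and 9.31 at Rab33a (chrX:48525402-48525717, -1.49 ± 0.43, adjusted p = 0.36). Rab19 and Rab33a are Golgi Rabs. The untreated and IL-4 values did not overlap at these 3 regions, but no change passed the adjustment.

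HDAC1 was 4.14 and 4.97 against 9.86 and 7 at Rab39, a phagosome Rab (chr9:53700428-53700882, 1.19 ± 0.46, adjusted p = 0.33), 13.9 and 14.98 against 6.86 and 4.23 at Rab1 (chr11:20192940-20193552, -1.10 ± 0.36, adjusted p = 0.24), and 13.2 and 7.69 against 4.65 and 3.52 at Rab8b (chr9:66894991-66895729, -0.99 ± 0.42, adjusted p = 0.40). For HDAC2 the log2 changes were 1.01 ± 0.34 and 0.84 ± 0.42 at 2 regions of Rab8b (chr9:66886871-66887232 and chr9:66918648-66919151, adjusted p = 0.30 and 0.51) and 0.94 ± 0.51 at a region named for Rab14 that lies in another gene (chr2:35173973-35174436, adjusted p = 0.55). HDAC3 was 20.1 and 17.0 against 10.9 and 10.5 at Rab5a (chr17:53488562-53488974, -1.07 ± 0.26, adjusted p = 0.11), and its log2 change was -1.24 ± 0.67 at Rab17 (chr1:90975007-90975345, adjusted p = 0.42) and -0.96 ± 0.40 at Rab40c (chr17:25913938-25914227, adjusted p = 0.30). None of these passed the adjustment.

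In the IL-4/LPS experiment all comparisons were fitted on the 8 samples together, and comparisons that name the same group share its samples. LPS for 1 hr changed RNAPII-pS5 at 10 of 36 Rab genes tested. It rose at Rab20, Rab5c, Rab5a, Rab9, Rab10 and Rab37 and fell at Rab40c, Rab44, Rab39 and Rab6a, beside 8.53% of all genes called higher and 19.7% called lower. The Rab genes' median log2 change was -0.07 and that of all genes -0.51. The ctrl/LPS samples were shifted by -0.34 on the log2 scale before centring, and the changes are relative to that shift. Without either ctrl/ctrl replicate, 6 were called.

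The early endosome and phagosome group held 3 of the risers. Rab20, which takes part in phagosome maturation, had an RNAPII-pS5 score of 26.7 and 24.7 in ctrl/ctrl, 23.6 and 29.1 in IL-4 PT/ctrl, 67.3 and 66.6 in ctrl/LPS and 39.8 and 36.6 in IL-4 PT/LPS. The log2 change with LPS was 1.72 ± 0.16 (adjusted p = 0.0031), IL-4 PT/LPS lay below ctrl/LPS by -1.20 ± 0.16 (adjusted p = 0.01), and the difference between the LPS changes with and without pretreatment was -1.16 ± 0.22 (adjusted p = 0.042). Both IL-4 PT/LPS values thus lay between those of ctrl/ctrl and ctrl/LPS. Rab5c had 7.51 and 13.3 in ctrl/ctrl, 16.2 and 17.3 in IL-4 PT/ctrl, 27.02 and 42.4 in ctrl/LPS and 19.8 and 26.8 in IL-4 PT/LPS (LPS 2.10 ± 0.39, adjusted p = 0.011). Rab5a, with 25.3 and 26.0 in ctrl/ctrl and 31.5 and 35.0 in ctrl/LPS, changed by 0.71 ± 0.16 (adjusted p = 0.02). RNAPII-pS2 did not rise with LPS at Rab20 (-0.02 ± 0.21, scores below) or Rab5a (-0.20 ± 0.30).

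Of the other risers, Rab9, which returns mannose 6-phosphate receptors from late endosomes to the Golgi, had 6.22 and 4.41 in ctrl/ctrl, 8.16 and 6.01 in IL-4 PT/ctrl, 15.2 and 17.6 in ctrl/LPS and 18.9 and 12.6 in IL-4 PT/LPS (LPS 1.98 ± 0.37, adjusted p = 0.011). Rab10, which carries TLR4 to the surface, had a peak of 7.01 in 1 ctrl/ctrl sample and of 17.98 and 13.7 in ctrl/LPS (adjusted p = 0.045), with 4.88 and 5.98 in IL-4 PT/LPS. Rab37, a secretory Rab overlapped by Cd300lf, had a peak in the LPS groups alone, of 7.86 and 6.03 in ctrl/LPS and 8.51 and 7.59 in IL-4 PT/LPS. At Rab9 and Rab37 the IL-4 PT/LPS values overlapped those of ctrl/LPS, and at Rab10 both lay below them.

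Among the genes where RNAPII-pS5 fell, Rab40c had 30.4 and 23.7 in ctrl/ctrl, 15.2 and 4.57 in IL-4 PT/ctrl, no peak in ctrl/LPS and 6.80 and 11.7 in IL-4 PT/LPS (LPS, adjusted p = 0.0063). Rab44, a granule Rab of mast cells, had 11.2 and 9.73, then 7.70 and 12.8, none, and 13.7 and 3.20 in the same order (LPS, adjusted p = 0.031). Rab39 (7.30 and 10.6) and the Golgi gene Rab6a (5.44 and 3.47), overlapped by Mrpl48, had a peak in ctrl/ctrl alone. Both of these were called lower in RNAPII-pS5 for LPS and for IL-4 pretreatment. No RNAPII-pS2 change with LPS was called at Rab40c, Rab44, Rab39 or Rab6a. RNAPII-pS2 of Rab39 was 12.5 in 1 ctrl/ctrl sample, none in IL-4 PT/ctrl, 14.9 and 16.5 in ctrl/LPS and 12.7 and 4.45 in IL-4 PT/LPS. That of Rab6a was 8.83 and 4.41 in ctrl/ctrl and 4.32 in 1 ctrl/LPS sample, with none in the pretreated groups.

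IL-4 pretreatment by itself changed RNAPII-pS5 at 3 of the 36 genes, 1 higher (Rab3d) and 2 lower (Rab39 and Rab6a), beside 3.95% and 3.04% of all genes, and 0 were called when any 1 of the 4 samples compared was left out, and 1 without IL-4 PT/LPS replicate 1. The medians were -0.04 for the Rab genes and 0.00 for all genes. Rab3d, a secretory granule Rab, had no peak in ctrl/ctrl or ctrl/LPS, 5.53 and 9.60 in IL-4 PT/ctrl and 6.88 and 8.77 in IL-4 PT/LPS. It was also called higher in IL-4 PT/LPS than in ctrl/LPS (adjusted p = 0.027 and 0.02).

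Between IL-4 PT/LPS and ctrl/LPS, 2 Rab genes were higher (Rab3d and Rab33a) and 2 lower (Rab20 and Rab4b), beside 7.68% and 3.94% of all genes, with 0 calls when either IL-4 PT/LPS replicate was left out and 2 without either ctrl/LPS replicate. Rab4b, a recycling Rab, had 10.2 and 5.78 in ctrl/LPS and no peak in either pretreated group (adjusted p = 0.039). Rab33a had an RNAPII-pS5 peak only in IL-4 PT/LPS, of 6.01 and 6.64. Its RNAPII-pS2 peaks were in all 4 groups, with 11.5 in 1 ctrl/ctrl sample and 9.27 and 10.2 in IL-4 PT/ctrl. They had 33.0 and 17.8 in ctrl/LPS and 32.8 and 42.0 in IL-4 PT/LPS, and no RNAPII-pS2 change of Rab33a was called.

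Between IL-4 PT/LPS and IL-4 PT/ctrl, 4 Rab genes were higher (Rab32, Rab14, Rab33a and Rab37) and 0 lower, beside 6.64% and 12.7% of all genes, and 2 were called without either IL-4 PT/LPS replicate. Unadjusted p was at most 0.05 for 8 higher and 4 lower. Rab32 had 14.2 and 16.8 in ctrl/ctrl, 6.03 and 6.56 in IL-4 PT/ctrl, 11.3 and 14.6 in ctrl/LPS and 49.1 and 31.7 in IL-4 PT/LPS. Its log2 change with LPS was 2.67 ± 0.31 in pretreated BMDMs (adjusted p = 0.0053) and 0.07 ± 0.31 in BMDMs not pretreated (adjusted p = 0.92), and the difference between them was 2.59 ± 0.44 (adjusted p = 0.037). Both IL-4 PT/LPS values of Rab32 lay above all 6 others. RNAPII-pS2 of Rab32 did not share this difference. It was 12.3 and 4.27 in ctrl/ctrl, 10.8 and 9.26 in IL-4 PT/ctrl, 31.6 and 19.9 in ctrl/LPS and 50.2 and 30.1 in IL-4 PT/LPS. Its LPS change was 1.67 ± 0.53 in pretreated BMDMs and 1.70 ± 0.53 without pretreatment (difference -0.02 ± 0.75, none called). RNAPII-pS5 of Rab14 was 9.98 and 4.43 in ctrl/ctrl, none in IL-4 PT/ctrl, 2.77 in 1 ctrl/LPS sample and 9.82 and 9.57 in IL-4 PT/LPS.

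The difference between the LPS changes with and without pretreatment was called for 6 Rab genes in RNAPII-pS5, 5 higher (Rab32, Rab14, Rab33a, Rab39 and Rab40c) and 1 lower (Rab20), beside 3.36% and 2.42% of all genes. Rab20 and Rab32 are the 2 of these with a peak in all 8 samples. None of the 6 was called when any 1 of the 8 samples was left out. For Rab20 the adjusted p then ran from 0.077 to 0.127 and for Rab32 from 0.086 to 0.112.

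Elongating polymerase changed at 7 of 39 Rab genes with LPS. RNAPII-pS2 rose at Rab12, Rab5c, Rab31, Rab9 and Rab37 and fell at Rab8b and Rab18, beside 11.7% of all genes called higher and 13.3% called lower. The median log2 change was 0.02 over the Rab genes and -0.20 over all genes. Without ctrl/ctrl replicate 1 or 2 the calls came to 4 and 1, and without ctrl/LPS replicate 1 to 2. Rab5c, Rab9 and Rab37 were called higher in both polymerase forms. The other RNAPII-pS5 risers, Rab20, Rab5a and Rab10, were not called in RNAPII-pS2 with LPS. Rab20 had 71.9 and 45.0 in ctrl/ctrl, 30.0 and 33.1 in IL-4 PT/ctrl, 61.6 and 57.7 in ctrl/LPS and 53.4 and 45.7 in IL-4 PT/LPS. IL-4 PT/LPS against ctrl/LPS was -0.31 ± 0.21 at Rab20 and was not called. The LPS change of Rab10 was 0.29 ± 0.52.

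Rab12 had no RNAPII-pS2 peak in ctrl/ctrl, 4.71 and 5.28 in IL-4 PT/ctrl, 17.1 and 19.2 in ctrl/LPS and 25.1 and 31.8 in IL-4 PT/LPS, the 4 groups not overlapping (LPS, adjusted p = 0.0024; IL-4 PT/LPS against IL-4 PT/ctrl 2.21 ± 0.37, adjusted p = 0.01). Rab31 had 27.02 and 22.6, 18.7 and 23.9, 76.0 and 44.7, and 65.8 and 79.6 in the same order (LPS 1.14 ± 0.26, adjusted p = 0.022, and 1.49 ± 0.26, adjusted p = 0.011, in pretreated BMDMs). Rab5c had 10.5 and 9.62, 8.78 and 7.84, 41.1 and 22.7, and 26.6 and 22.1 (1.51 ± 0.33, adjusted p = 0.02, and 1.26 ± 0.33, adjusted p = 0.041). At Rab31 and Rab5c every sample with LPS lay above every sample without.

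Rab9 had 7.31 and 5.28 in ctrl/ctrl, 7.24 and 15.1 in IL-4 PT/ctrl, 21.1 and 19.6 in ctrl/LPS and 23.2 and 26.7 in IL-4 PT/LPS (LPS 1.62 ± 0.37, adjusted p = 0.023). Rab37 had a peak in 1 sample without LPS (8.65, IL-4 PT/ctrl) and in all 4 with it, of 24.9, 16.0, 24.9 and 18.5. Rab8b went down, from 66.7 and 56.9 in ctrl/ctrl and 54.5 and 40.9 in IL-4 PT/ctrl to 35.6 and 23.9 in ctrl/LPS and 30.3 and 35.8 in IL-4 PT/LPS (LPS -1.17 ± 0.26, adjusted p = 0.022). Rab18 fell from 18.3 and 16.4 in ctrl/ctrl to 5.05 in 1 ctrl/LPS sample and none in the other (adjusted p = 0.046), with 2.18 in 1 IL-4 PT/ctrl sample (adjusted p = 0.04).

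IL-4 pretreatment changed RNAPII-pS2 at 6 Rab genes, higher at Rab3d, Rab3a and Rab12 and lower at Rab4b, Rab10 and Rab18, beside 7.86% and 7.41% of all genes, with medians of -0.22 and -0.05. Without IL-4 PT/ctrl replicate 1 or 2, 1 and 3 were called. Rab3d (6.16 and 8.46) and Rab3a (3.64 and 4.59), exocytic Rabs, had a peak in IL-4 PT/ctrl alone. Rab4b had 6.64 and 9.84 in ctrl/ctrl, 3.21 and 4.71 in ctrl/LPS and no peak after pretreatment (adjusted p = 0.011). Rab10 had 11.1 and 15.8 in ctrl/ctrl, 2.43 and none in IL-4 PT/ctrl, 17.4 and 17.0 in ctrl/LPS and 13.7 and 8.04 in IL-4 PT/LPS (pretreatment, adjusted p = 0.018). Rab3d was called higher with pretreatment in both polymerase forms, and Rab4b had no peak of either form in either pretreated group.

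Between IL-4 PT/LPS and ctrl/LPS, 0 of 39 Rab genes were called for RNAPII-pS2 by limma, beside 4.18% of all genes higher and 2.78% lower, and unadjusted p was at most 0.05 for 0 higher and 2 lower. Among genes with a peak in all 8 samples the values differed most at Rab28 (26.4 and 18.1 in ctrl/LPS, 5.90 and 18.1 in IL-4 PT/LPS; log2 change -1.12 ± 0.66), Rab32 (31.6 and 19.9 against 50.2 and 30.1; 0.60 ± 0.53) and Rab33b (13.5 and 14.9 against 22.7 and 17.9; 0.47 ± 0.57). The groups overlapped at Rab28 and Rab32. Between IL-4 PT/LPS and IL-4 PT/ctrl, 4 were higher (Rab12, Rab31, Rab5c and Rab10) and 3 lower (Rab3d, Rab3a and Rab13), beside 10.3% and 10.2% of all genes. Of these 7, 2 to 4 were called when an IL-4 PT/ctrl or IL-4 PT/LPS replicate was left out. Rab13, of epithelial junctions, had 6.81 and 11.7 in IL-4 PT/ctrl and no peak in IL-4 PT/LPS. The difference between LPS changes was called for Rab3d and Rab3a, both lower, beside 3.2% and 2.73% of all genes higher and lower, and for neither with any 1 of the 8 samples left out. The plot of RNAPII-pS5 and RNAPII-pS2 by condition shows 8 genes from these comparisons.

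**Figure D4:**
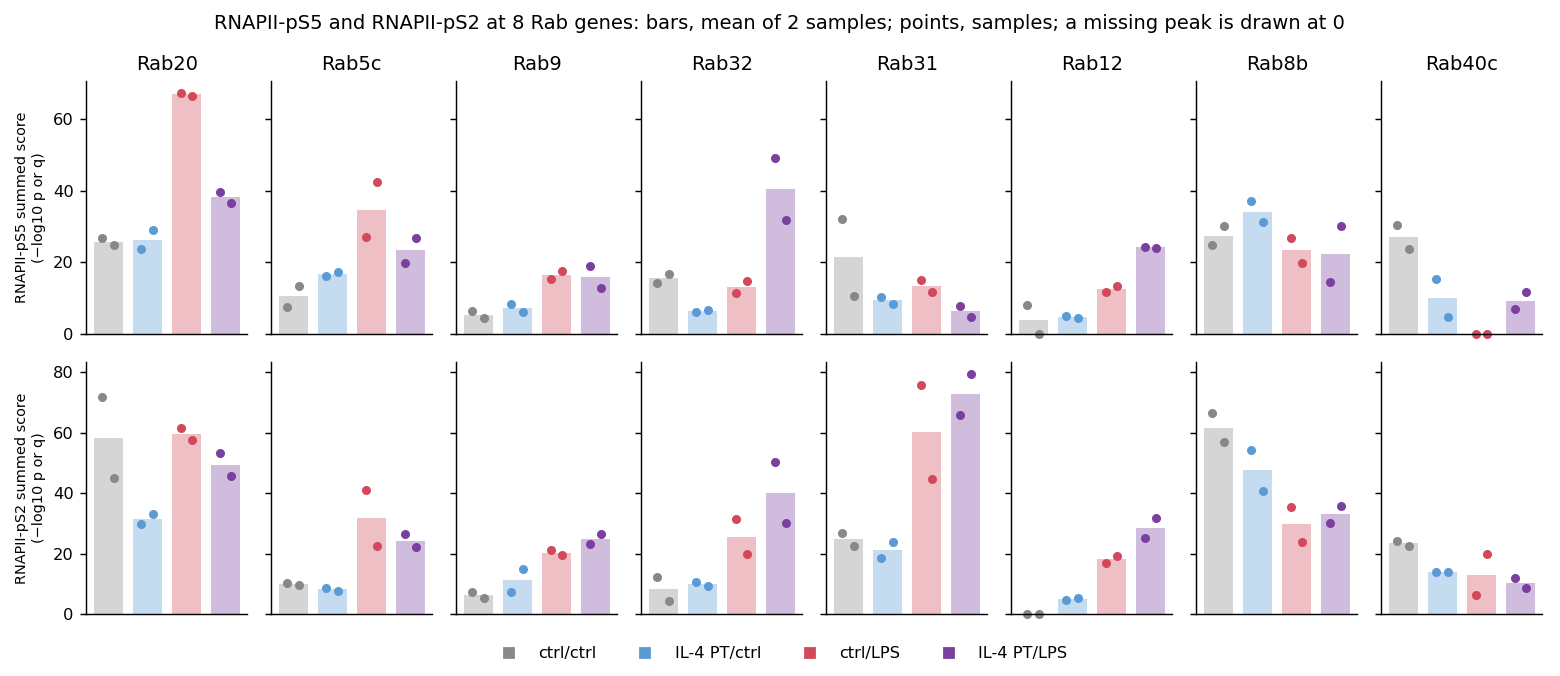
Summed RNAPII-pS5 (top) and RNAPII-pS2 (bottom) peak scores of 8 Rab genes in the 4 groups of the IL-4/LPS experiment, 2 replicates each; a sample with no peak is drawn at 0. RNAPII-pS5 of Rab20 peaks in ctrl/LPS (67.3 and 66.6) and that of Rab32 in IL-4 PT/LPS (49.1 and 31.7), while RNAPII-pS2 of Rab31 is above 44 in all 4 samples with LPS.

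Binding of p65, the NF-kB subunit that LPS brings into the nucleus, rose at 42 of the 101 Rab regions tested after 1 hr of LPS and fell at 2, at 29 genes, beside 29.2% of all regions called higher and 3.6% called lower. The median log2 change was 1.04 over Rab regions and 0.72 over all regions. These changes are relative to a shift of 1.04 (ctrl/LPS) and 1.31 (IL-4 PT/LPS) on the log2 scale from ctrl/ctrl in the regions bound in every sample. Of the called Rab regions 3 had a peak in all 8 samples and 2 in only 2. By role, 8 of 20 ER and Golgi regions rose, 12 of 31 early endosomal, 9 of 24 recycling, 1 of 7 late endosomal, 10 of 15 secretory and 2 of 4 others. When 1 sample was left out, 36 to 46 regions were called. With a floor 4 times as high 12 were called, and 3 when a peak was required in every sample.

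The highest mean p65 score in ctrl/LPS among the Rab regions was at Rab31. The region chr17:65740160-65740740, in an intron 32.3 kb from the start and printed above, had no p65 peak in ctrl/ctrl or IL-4 PT/ctrl, 96.3 and 79.9 in ctrl/LPS and 57.6 and 48.8 in IL-4 PT/LPS (LPS, adjusted p = 0.00027; IL-4 PT/LPS against ctrl/LPS -0.99 ± 0.22, adjusted p = 0.022). Another intronic region, at 42.3 kb, held 10.3 and 13.6, 11.4 and 7.17, 14.3 and 11.3, and 10.3 and 10.7 in the 4 groups. Scores thus overlapped among the groups at 42.3 kb. At 32.3 kb both groups without LPS had no peak, and the scores of the groups with LPS did not overlap.

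At Rab20 the region chr8:11458031-11458638 (20.2 kb, intron) had no peak without LPS, 41.9 and 35.1 in ctrl/LPS and 42.8 and 33.0 in IL-4 PT/LPS (LPS, adjusted p = 0.00028). Nearby, chr8:11460868-11461327 (17.4 kb) was bound in every sample, with 79.5 and 68.4 in ctrl/ctrl, 42.5 and 36.5 in IL-4 PT/ctrl, 51.3 and 65.5 in ctrl/LPS and 34.2 and 49.2 in IL-4 PT/LPS. Relative to the shift of all common regions, it fell by 1.39 on the log2 scale with LPS (adjusted p = 0.0046) and was lower in IL-4 PT/LPS than in ctrl/LPS (-0.77 ± 0.21, adjusted p = 0.044). Both ctrl/LPS scores also lay below both ctrl/ctrl scores as listed.

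Among the Rab regions bound in all 4 samples with LPS, the widest gaps between IL-4 PT/LPS and ctrl/LPS were at Rab32. At chr10:10546571-10547098 (11.4 kb, intron) p65 had no peak without LPS, 9.31 and 9.58 in ctrl/LPS and 67.0 and 60.4 in IL-4 PT/LPS (log2 difference 2.48 ± 0.19, adjusted p = 0.00051). At chr10:10556889-10557594 (1.0 kb, intron) it had 8.35 and 9.08 against 39.2 and 38.5 (1.89 ± 0.18, adjusted p = 0.0011). Another region, at 2.8 kb, had 24.3 and 15.3 against 30.9 and 35.4, with no called difference (adjusted p = 0.26). The former 2 are the windows with an NF-kB match printed above, and RNAPII-pS5 of Rab32 was also highest in IL-4 PT/LPS.

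Of the transport Rabs, Rab8b had no p65 peak in ctrl/ctrl, 8.07 and 8.66 in IL-4 PT/ctrl, 31.8 and 22.3 in ctrl/LPS and 50.2 and 59.9 in IL-4 PT/LPS at chr9:66918288-66918940, 1.1 kb from its start, where p300 rose after 1 hr of IL-4 (LPS, adjusted p = 0.00034; pretreatment, adjusted p = 0.0022). Another Rab8b region, at 24.8 kb, went the other way with pretreatment, from 8.92 and 8.11 in ctrl/LPS to 2.43 and 3.73 in IL-4 PT/LPS (-1.77 ± 0.21). The region named for Rab8a (chr8:72151818-72152344) lies 9.1 kb before its start, in the 3′ UTR of Tpm4, and had 14.6 and 16.2 in ctrl/LPS and 44.0 and 45.3 in IL-4 PT/LPS (1.27 ± 0.19, adjusted p = 0.0049). Rab10 (chr12:3282350-3283263, intron, 27.2 kb) had 58.7 and 60.5 in ctrl/LPS and 51.9 and 57.1 in IL-4 PT/LPS against 6.38, 9.37 and 6.78 in the 3 samples without LPS that had a peak, and was called in pretreated BMDMs alone (adjusted p = 0.043 for IL-4 PT/LPS against IL-4 PT/ctrl, 0.23 for ctrl/LPS against ctrl/ctrl).

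Rab21 (chr10:115332275-115332905, intergenic, 17.0 kb before the start) had no p65 peak in ctrl/ctrl, 6.10 and 6.11 in IL-4 PT/ctrl, 24.1 and 23.2 in ctrl/LPS and 24.9 and 27.7 in IL-4 PT/LPS (LPS, adjusted p = 0.00027; pretreatment, adjusted p = 0.0018). Rab1 (chr11:20204334-20204769, intron, 3.0 kb) had 41.6 and 28.0 in ctrl/LPS and 17.2 and 26.6 in IL-4 PT/LPS, with none without LPS. With peaks in all 8 samples, Rab12 (chr17:66518779-66519392, 0.6 kb) rose from 4.87 and 8.36 in ctrl/ctrl to 40.7 and 40.4 in ctrl/LPS (1.62 ± 0.31, adjusted p = 0.012), and Rab17, which recycles receptors in epithelia (chr1:90974876-90975582, 5.6 kb before the start), from 6.26 and 3.21 to 43.4 and 25.8 (1.85 ± 0.41, adjusted p = 0.02).

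IL-4 pretreatment alone changed p65 at 5 Rab regions, higher at 4 and lower at 1, beside 3.48% and 2.35% of all regions. The 4 were the Rab21 region at 17.0 kb, the Rab8b region at 1.1 kb, the Rab6a promoter (chr7:100607215-100607709, 7.96 and 4.52, in IL-4 PT/ctrl alone) and a region named for Rab11a inside Megf11 (chr9:64564178-64564874, none in ctrl/ctrl, 6.58 and 5.49 in IL-4 PT/ctrl). The last overlaps the p300 region at chr9:64563951-64564910 that rose after 1 hr of IL-4. The lower one was Rab8b at 11.8 kb (chr9:66907742-66908232, 5.56 and 4.27 in ctrl/ctrl, none after pretreatment). Without IL-4 PT/ctrl replicate 2, 8 were called.

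Between IL-4 PT/LPS and ctrl/LPS, 22 Rab regions were higher and 6 lower, at 18 genes, beside 23.5% and 5.36% of all regions, and between IL-4 PT/LPS and IL-4 PT/ctrl 54 were higher and 3 lower, at 32 genes, beside 48% and 4.02%. Of the 28 in the former comparison, 18 had a peak in only 2 samples, and 6 and 8 were called without IL-4 PT/LPS replicate 1 and 2; for the latter the counts without them were 37 and 32. The regions with the smallest adjusted p in the former had a p65 peak in IL-4 PT/LPS alone: Rab17 (chr1:90975857-90976168, 12.8 and 13.6), Rab2a (chr4:8534433-8534843, 14.95 and 19.5), the Rab21 promoter (chr10:115315833-115316271, 9.88 and 11.6), a pair of introns of Rab38, the melanosome Rab (chr7:88443854-88444152, 8.00 and 7.22, and chr7:88482164-88482782, 6.48 and 8.07), and Rab18 (chr18:6773290-6773549, 5.70 and 5.46). The IL-4 PT/LPS lists were also longer, with 36738 and 38955 p65 peaks against 26305 and 26820 in ctrl/LPS. The part of list length in peaks found in IL-4 PT/LPS alone was not tested. The Rab31, Rab20 (17.4 kb) and Rab8b (24.8 kb) regions above were among the 6 that were lower. The difference between LPS changes was called for 23 Rab regions (18 higher and 5 lower, at 16 genes), beside 18.3% and 5.26% of all regions, and for 5 and 6 without IL-4 PT/LPS replicate 1 and 2. The plot of p65 regions shows Rab20, Rab31, Rab32, Rab21 and Rab8b.

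**Figure D5:**
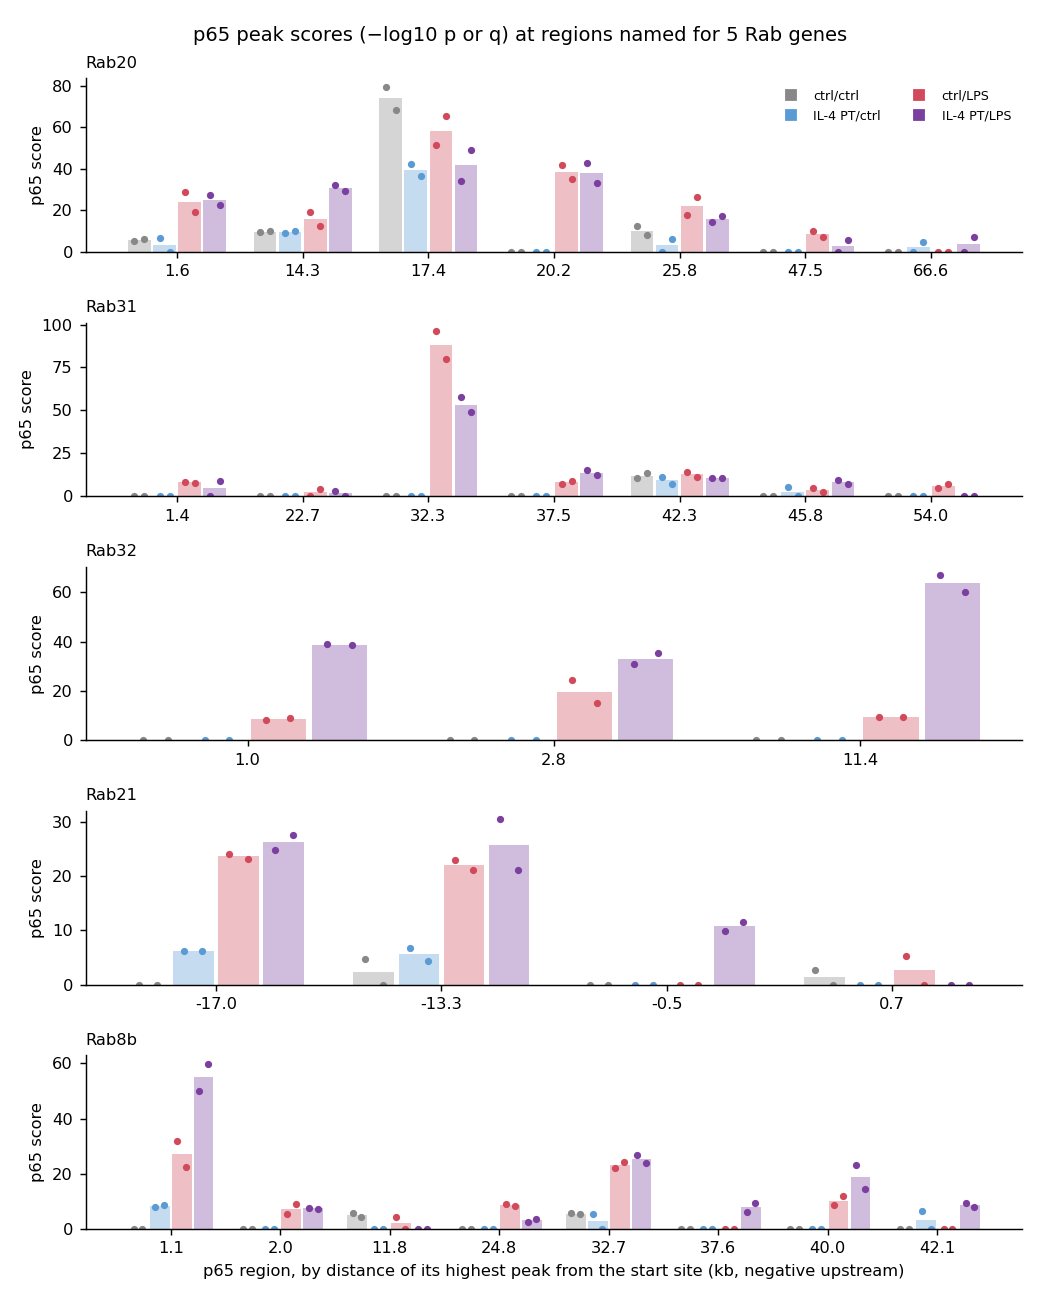
p65 peak score by distance from the gene start (kb) at regions of Rab20, Rab31, Rab32, Rab21 and Rab8b in the 4 groups of the IL-4/LPS experiment, 2 replicates each. The Rab31 region at 32.3 kb is higher in ctrl/LPS (96.3 and 79.9) than in IL-4 PT/LPS (57.6 and 48.8), and the Rab32 region at 11.4 kb the reverse (9.31 and 9.58 against 67.0 and 60.4).

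The genes that load, switch and read the Rabs were examined as 4 lists: chaperones and prenylation factors (8), exchange factors (26), GTPase-activating proteins (25, of which 23 are named in the peak lists) and effectors (26). With 1 hr of IL-4, H3K27Ac rose at 6 and fell at 5 of 23 exchange factors tested, rose at 3 and fell at 7 of 23 GTPase-activating proteins, rose at 1 and fell at 6 of 17 effectors and fell at 1 of 8 chaperones, Rabac1, beside 13.9% of all genes higher and 16% lower. The lists' median log2 changes were -0.02, -0.23, -0.02 and -0.05. p300 rose at 19 and fell at 5 of 151 exchange-factor regions, rose at 28 and fell at 8 of 234 regions of GTPase-activating proteins, rose at 9 and fell at 6 of 132 of effectors and rose at 1 and fell at 1 of 24 of chaperones, beside 11.1% and 2.81% of all regions. With LPS, RNAPII-pS5 fell at 9 of 22 GTPase-activating genes and rose at 1, with a median of -0.83 against -0.51 over all genes, while 3 of 23 exchange factors fell and 2 rose, and 4 of 18 effectors fell and 2 rose, beside 19.7% of all genes lower and 8.53% higher.

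Rin3, an exchange factor of the Rab5 family, moved with IL-4 in 3 readouts. Its H3K27Ac was 438 and 432 in untreated BMDMs and 715 and 693 after 1 hr of IL-4 (log2 change 0.68 ± 0.04, adjusted p = 0.0020). RNAPII-pS5 at Rin3 was 12.5 and 16.5 in ctrl/ctrl, 49.2 and 49.7 in IL-4 PT/ctrl, 19.4 and 21.1 in ctrl/LPS and 41.1 and 41.4 in IL-4 PT/LPS (pretreatment 1.72 ± 0.21, adjusted p = 0.0098), and RNAPII-pS2 was 24.4 and 19.8, 47.7 and 54.4, 48.2 and 50.2, and 73.8 and 77.4 (1.37 ± 0.15, adjusted p = 0.0040). In RNAPII-pS5 all 4 pretreated samples lay above the other 4.

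Among the GTPase-activating proteins, Tbc1d1 had an RNAPII-pS5 score of 29.4 and 30.0 in ctrl/ctrl, 75.2 and 76.0 in IL-4 PT/ctrl, 16.3 and 16.6 in ctrl/LPS and 26.0 and 26.6 in IL-4 PT/LPS (pretreatment 1.29 ± 0.15, adjusted p = 0.0092). Tbc1d13 rose with LPS, from 67.2 and 52.1 to 99.4 and 104 (1.12 ± 0.12, adjusted p = 0.0032). H3K27Ac at Tbc1d16 rose with IL-4, from 28.9 and 27.5 to 131 and 120 (2.14 ± 0.09, adjusted p = 0.0012).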

How the data were processed

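Per the labels and the study's methods, ChIP-seq reads of mouse BMDMs were aligned to mm10 and peaks were called in each sample. The submitters' processing notes name BWA 0.7.10, SAMtools 0.1.19, HOMER 4.2 and MACS2 2.0.10. The deposited lists give each peak's place, the nearest gene and a score. For MACS2 peaks the authors' score was read, from its range, as −log10 of a p-value or q-value. The lowest scores, down to 1.3, lie below what the study's q-value cut-off would allow on that scale, so this reading is not settled. For H3K27Ac the authors deposited a HOMER signal of normalized tags in 1001-bp regions. No input sample is named in the sources used here. The study's read-based test could not be run, since no reads were used.

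Scores of genic peaks were summed per gene (RNAPII-pS5, RNAPII-pS2, H3K27Ac), or the highest score was taken per region merged at an overlap of 1 bp. Log2 values were centred on features with a peak in every sample, missing peaks were then set to the lowest score of the antibody, and features with a peak in at least 2 samples were tested with limma 3.58.1 (lmFit, eBayes with trend, R 4.3.3) and Benjamini-Hochberg adjustment, called at 0.05, in 23 comparisons. The order of floor and centring was settled after the data were seen, and the other order was kept as an alternative. The fit was tested on simulated data. Tables, windows and figures were made with Python 3.11.15, pandas 2.3.3, numpy 2.4.6 and matplotlib 3.10.9, and sequences came from RefSeq GRCm38.p6.

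The genes, roles and lists were chosen with earlier results of these data known. Named are the genes or regions called (the 6 with the smallest adjusted p where more were), or, where none was called, the 3 largest changes with a peak in every sample; other regions, roles and pathway genes given with values were picked after their values were seen. Alternatives were no centring, a floor 4 times as high, a peak in every sample, peaks above the 25th percentile, intergenic peaks, an overlap of 100 bp, a replicate block, assignment by gene span with 1 kb on either side, and leaving out each sample.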

Additional observations from a re-analysis of the deposited data

Results flagged for a closer look

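The change of score with LPS differed between BMDMs pretreated with IL-4 and BMDMs not pretreated, by limma's test of that difference, for 6 genes in RNAPII-pS5, 2 genes in RNAPII-pS2 and 23 regions in p65. The 20 of these that the naming rule covers are given here as the LPS change in pretreated minus that in BMDMs not pretreated (log2). Where a group had no peak the value is fitted with the lowest score in its place, depends on that score and is no fold. In RNAPII-pS5 the differences were -1.16 for Rab20 and 2.59 for Rab32, which had a peak in all 8 samples, and 2.55 for Rab39, 4.28 for Rab40c, 2.03 for Rab33a and 4.2 for Rab14, which did not. In RNAPII-pS2 they were -2.55 for Rab3d and -1.73 for Rab3a, with peaks in IL-4 PT/ctrl alone. The RNAPII-pS2 differences of Rab20 and Rab32 were 0.38 and -0.02 and were not called. Those of Rab39, Rab40c, Rab33a and Rab14 were 0.47, 0.39, -0.90 and 1.07, and were not called either.

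For p65 the difference was 2.48 at the Rab32 region 11.4 kb from the gene start and 1.89 at that 1.0 kb from it, 1.27 at the Rab8a region, -3.07 at the Rab21 region 17.0 kb before its start and -2.64 at the Rab8b region 1.1 kb from its start. It was -2.93 at the Rab6a promoter, whose peak was listed in IL-4 PT/ctrl alone. The regions with a peak in IL-4 PT/LPS alone gave 2.56 at Rab17, 2.93 at Rab2a, 2.26 at the Rab21 promoter, 1.76 and 1.69 at Rab38 and 1.32 at Rab18. The p65 lists of IL-4 PT/LPS were the longest of the 4 groups.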

How the results depend on the processing

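Of 327 recomputed counts of called Rab genes or regions, 223 stayed within 1.5 times the reported count and 104 did not. Without centring, the counts were 0 for p300 (34 reported), 7 for RNAPII-pS5 in IL-4 PT/LPS against ctrl/LPS (4), 1 for the RNAPII-pS2 difference of LPS changes (2) and 3 for p65 with pretreatment (5). With a floor 4 times as high they were 0 and 3 for RNAPII-pS5 with pretreatment and its difference of LPS changes (3 and 6), 3 and 1 for the same in RNAPII-pS2 (6 and 2), and for p65 12 with LPS (44), 2 with pretreatment (5), 8 and 24 for IL-4 PT/LPS against ctrl/LPS and against IL-4 PT/ctrl (28 and 57) and 5 for the difference (23). Requiring a peak in every sample, which leaves fewer features, gave 1 for RNAPII-pS2 at 1 hr (0), 3, 1 and 1 for RNAPII-pS5 with LPS, in pretreated BMDMs and for the difference (10, 4 and 6), 3, 4 and 0 for RNAPII-pS2 with pretreatment, with LPS in pretreated BMDMs and for the difference (6, 7 and 2), and 3, 1, 0, 4 and 0 for the 5 p65 comparisons in the order above. Peaks above the 25th percentile gave 4 for HDAC3 (0), 1 for RNAPII-pS2 in IL-4 PT/LPS against ctrl/LPS (0) and 3 for p65 with pretreatment (5). With intergenic peaks the counts were 7 for RNAPII-pS5 in IL-4 PT/LPS against ctrl/LPS (4), and 13, 11 and 1 for RNAPII-pS2 with LPS, with pretreatment and in IL-4 PT/LPS against ctrl/LPS (7, 6 and 0). With the floor set before centring, added after the data were seen, they were 1 for RNAPII-pS2 at 1 hr (0), 2 and 1 for the RNAPII-pS5 and RNAPII-pS2 differences (6 and 2) and 3 for p65 with pretreatment (5). Assignment by gene span, also added then, gave 5 and 8 for RNAPII-pS5 with pretreatment and in IL-4 PT/LPS against ctrl/LPS (3 and 4) and 10 for RNAPII-pS2 with pretreatment (6), and it reversed RNAPII-pS5 at Rab37, overlapped by Cd300lf, between IL-4 PT/LPS and IL-4 PT/ctrl (-0.17). The cause was not tested for any of these.

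Samples with the same replicate number did not deviate together (correlations from -0.05 to 0.06 over the antibodies) at features with a peak in every sample. The main fit did not pair them. Mice or cultures that samples may share are not given by the labels and could not be tested. With the replicate block the counts were 7 for H3K27Ac (12), 16 for p300 (34), 1 for RNAPII-pS5 with pretreatment (3) and 0 for the RNAPII-pS5 and RNAPII-pS2 differences (6 and 2).

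When each sample was left out in turn, the counts in the 1 hr experiment ran from 0 to 1 for RNAPII-pS5, RNAPII-pS2, PU.1 and HDAC2 (0 each), 0 to 2 for HDAC3 (0), 5 to 9 for H3K27Ac (12) and 16 to 94 for p300 (34). For RNAPII-pS5 they ran from 6 to 10 with LPS (10), 0 to 2 with pretreatment (3), 0 to 5 for IL-4 PT/LPS against ctrl/LPS (4), 2 to 5 against IL-4 PT/ctrl (4) and 0 to 0 for the difference (6). For RNAPII-pS2 the ranges were 1 to 7 with LPS (7), 1 to 7 with pretreatment (6), 2 to 8 for IL-4 PT/LPS against IL-4 PT/ctrl (7) and 0 to 0 for the difference (2). For p65 they were 36 to 46 with LPS (44), 4 to 8 with pretreatment (5), 6 to 30 for IL-4 PT/LPS against ctrl/LPS (28), 32 to 57 against IL-4 PT/ctrl (57) and 5 to 27 for the difference (23). A sample left alone in its group is taken to vary like the others.

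Of 1368 recomputed values of the 105 named genes and regions, 1135 kept their direction and their side of the threshold, 227 kept the direction but not the call, and 5, all of Rab8b RNAPII-pS2 at 1 hr, became called. What depth limits is unknown, since the scores come without read counts.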

Other observations

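The p65 regions of Rab genes that rose with LPS overlapped a PU.1 peak in 17 of 42 cases (40.5%, beside 42.6% of all p65 regions that rose) and a p300 peak of the 1 hr experiment in 21 of 42 (50.0%, beside 62.4%). The p300 regions of Rab genes that rose with IL-4 overlapped a PU.1 peak in 15 of 28 cases (53.6%, beside 32.0% of all p300 regions that rose) and an HDAC1 peak in 7 of 28 (25%, beside 12.7%). These shares are descriptions, and no difference between them was tested.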
